A study of Mus musculus with 8 samples.

Results

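The adipokine mRNAs *Adipoq*, *Lep*, *Retn* and *Nampt* were measured in the knee joints of 8 mouse strains. They are 4 of the 67 target mRNAs of the series and were taken by name. All 4 lie in the second of 2 assay panels, which holds 34 targets and the reference genes *Gapdh* and *Hprt1*. The strains were LG/J and SM/J, 4 recombinant inbred lines bred from these parents (LGXSM-5 and LGXSM-35, LGXSM-6 and LGXSM-33), MRL/MpJ and C57BL/6J. By the labels the parent LG/J, the line LGXSM-6 and MRL/MpJ are healers, the lines LGXSM-5 and LGXSM-35 are intermediate, and the parent SM/J, the line LGXSM-33 and C57BL/6J are non-healers. All mice had undergone full-thickness cartilage surgery of the knee at 8 weeks of age and were fed a normal diet, and no unoperated group was analysed here. Sections of several mice per strain, fixed in formalin and embedded in paraffin, were scraped to collect bone, cartilage, meniscus, growth plate, capsule and synovium together. The tissue read is thus a composite, and each strain is 1 genotype.

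Adipokines are hormones and cytokine-like proteins that fat tissue secretes. *Adipoq* encodes adiponectin, an insulin-sensitizing hormone made almost solely by adipocytes, and *Lep* encodes leptin, the adipocyte hormone that signals energy stores to the brain. *Retn* encodes resistin, which mouse adipocytes secrete and which opposes insulin action, and *Nampt* encodes the enzyme that limits NAD synthesis from nicotinamide, made by most cells and also found outside them as visfatin. In the knee, fat cells lie in the fat pad, under the synovium and in bone marrow, and these proteins are studied there as mediators of cartilage breakdown and inflammation.

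The 4 genes sit on different chromosomes. In the RefSeq annotation of GRCm38.p6, *Adipoq* spans chr16:23146536-23157968, *Lep* chr6:29060221-29073876, *Retn* chr8:3655770-3659818 and *Nampt* chr12:32820335-32853369. The sequences of the probes were not analysed here. The 120 bases before each annotated start, on the plus strand and from RefSeq, are shown because the promoters of the 4 genes differ in base composition and in the motifs they hold. Capitals mark matches to 4 motifs: the CCAAT box (CCAAT, both strands), the palindromic C/EBP site (TTGCGCAA), the GC box (GGGCGG, both strands) and the TATA box (TATAA, gene strand).
Adipoq, chr16:23146416-23146535: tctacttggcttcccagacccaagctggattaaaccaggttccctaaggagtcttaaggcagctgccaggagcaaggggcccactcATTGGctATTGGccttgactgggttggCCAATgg
Lep, chr6:29060101-29060220: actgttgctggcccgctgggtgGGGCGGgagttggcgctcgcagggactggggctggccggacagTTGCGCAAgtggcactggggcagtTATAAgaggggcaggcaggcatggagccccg
Retn, chr8:3655650-3655769: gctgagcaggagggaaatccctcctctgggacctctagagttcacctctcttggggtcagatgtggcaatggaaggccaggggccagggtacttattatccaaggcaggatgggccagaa
Nampt, chr12:32820215-32820334: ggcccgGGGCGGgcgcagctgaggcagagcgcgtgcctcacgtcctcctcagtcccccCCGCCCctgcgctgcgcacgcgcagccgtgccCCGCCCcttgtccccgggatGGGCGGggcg
In the 250 bases before its start, *Adipoq* held 3 CCAAT boxes, which 33.8% of 32851 mouse promoters of that length hold at least once. *Lep* held the palindromic C/EBP site, found in 0.164% of all promoters, with 1 TATA box (16% of promoters) and 1 GC box (32.7%), a GC content of 65.6% and 16 CpG dinucleotides. *Nampt* held 5 GC boxes, a GC content of 75.6% and 27 CpG dinucleotides, against medians of 52.4% and 6 over all promoters. *Adipoq* had a GC content of 48.8% and 0 CpG dinucleotides. *Retn* held none of the 4 motifs, with a GC content of 54.8% and 2 CpG dinucleotides. Such matches describe letters, and no promoter activity was measured.

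The measurement was the light signal of beads that capture each mRNA from the homogenate, in arbitrary units, read in 78 numbered assay replicates ("Signal 1" onwards). LGXSM-6 and LGXSM-33 had 12 each and the other strains 9 each. The labels do not say which signals belong to which mouse. The signals of a strain form 3 or 4 sets of 3. Mice and repeated measures per strain, as the methods of the study give them, come to the same numbers, so each set of 3 is likely 1 mouse read 3 times. In that case n = 9 or 12 counts readings, not mice, and every p-value over signals is too small. Calls over signals below measure only the spread between assay replicates, and the main calls are also given on the means of sets of 3. The deposited normalized level is what remains of the log10 signal after regression on the reference genes, so 0 is the level predicted from *Gapdh* and *Hprt1* and differences in it are on the log10 scale. A low level in a homogenate can come from fewer cells of a type or from less RNA per cell, and these cannot be told apart.

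*Nampt* and *Adipoq* gave signals that rose with those of the reference genes, and *Lep* and *Retn* hardly did. *Nampt* signals ran from 19 to 476 with a median of 136. Over the 78 replicates their log10 correlated with that of *Gapdh* at r = 0.86 and with that of *Hprt1* at r = 0.96. *Adipoq* signals ran from 11 to 99 with a median of 31.5, and r with *Gapdh* was 0.74. *Lep* signals ran from 6 to 19 with a median of 11 and *Retn* signals from 6.5 to 13 with a median of 8, with r to *Gapdh* of 0.23 and 0.26. By median signal *Retn* ranked 6 and *Lep* 10 of the 67 targets counted from the lowest, *Adipoq* 28 and *Nampt* 45. Signals of different probe sets are not on a common scale of mRNA amount, and these correlations describe wells that share a homogenate. The lowest signal of any target was 2, so 61 *Retn* readings and 28 *Lep* readings under 10 stood close to the bottom of the scale.

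**Figure D1:**
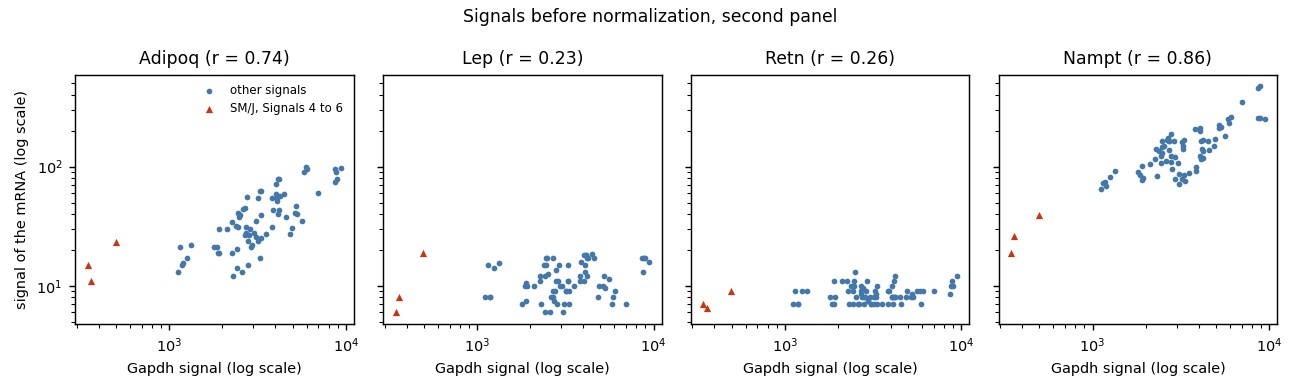
Signal of each adipokine mRNA against the *Gapdh* signal of the same assay replicate, both in arbitrary units on log scales (78 replicates per panel, r of the log10 values in each title). *Nampt* and *Adipoq* climb with *Gapdh* while *Lep* and *Retn* stay between 6 and 19, and Signals 4 to 6 of SM/J (triangles) lie apart at *Gapdh* signals of 346 to 497.

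Of 9 markers of bone and cartilage, the tissues the sections were taken for, each gave a signal of at least 7 in every replicate. Median signals were 24459 for *Col1a1*, 3358 for *Col2a1*, 2054 for *Comp* and 1531 for *Bglap1*, then 326 for *Runx2*, 272 for *Acan* and 129 for *Col10a1*, and 38.5 for *Sox9* and 31 for *Mia1*. Of the adipocyte hormones, *Adipoq* read at least 11 in every replicate, and *Lep* and *Retn* at least 6 and 6.5. Signals 4 to 6 of SM/J stood apart from the rest, with *Gapdh* at 346 to 497 against 1116 to 9428 in the other 75 replicates, and differences from SM/J that were called with or without them are given both ways. The amount of RNA in a well was not analysed here. Without them the limma adjusted p of the strain F test, described next, was 3.89e-09 for *Adipoq*, 0.0300 for *Nampt*, 0.0270 for *Retn* and 0.105 for *Lep*.

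*Adipoq* differed most between strains and was lowest in LG/J. In LG/J its signals had a lowest, median and highest value of 12, 17 and 21, and its normalized level was -0.259 ± 0.125 (SD, n = 9). C57BL/6J came next, with signals of 13, 19 and 26.5 and a level of -0.100 ± 0.0814 (n = 9). MRL/MpJ read 21, 32 and 59.5 with a level of -0.0534 ± 0.120 (n = 9), and LGXSM-35 read 24, 41 and 56 with a level of -0.0240 ± 0.106 (n = 9). These 4 strains had mean levels below 0.

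The other 4 strains had *Adipoq* levels above 0. LGXSM-6 read 28, 50.5 and 99 with a level of 0.0403 ± 0.121 (n = 12). SM/J read 11, 27 and 43 with a level of 0.0676 ± 0.177 (n = 9), and LGXSM-33 read 22, 57 and 98 with a level of 0.0892 ± 0.146 (n = 12). The highest level was in LGXSM-5, at 0.121 ± 0.0503 (n = 9) from signals of 30, 55 and 63. All 4 recombinant lines thus read above both of their parents in median signal, while on the normalized level SM/J fell among them. With its Signals 4 to 6 left out, SM/J had a level of -0.0404, close to that of LGXSM-35.

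**Figure D2:**
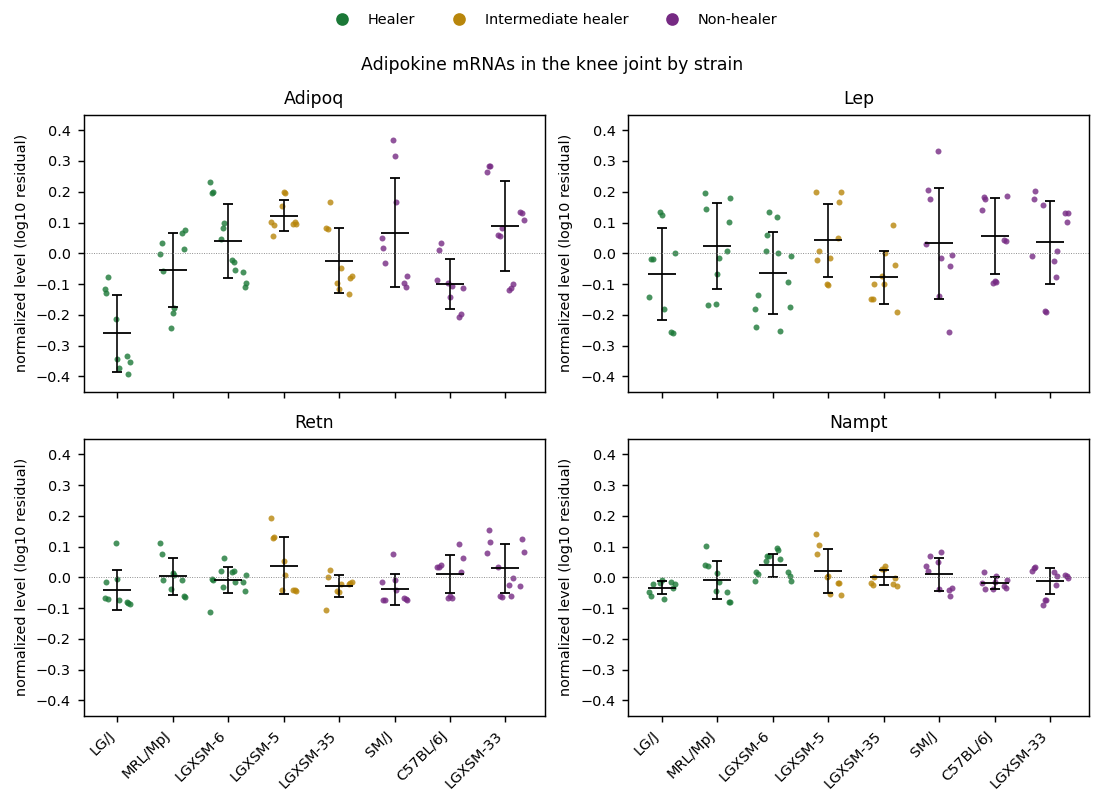
Normalized level (log10 residual) of the 4 adipokine mRNAs in each assay replicate, by strain, coloured by the healing category of the labels. Points are set side by side in consecutive threes of signals, and black bars are the mean ± SD (n = 9, or 12 for LGXSM-6 and LGXSM-33). *Adipoq* spans -0.259 in LG/J to 0.121 in LGXSM-5, while strain means of *Nampt* stay between -0.0332 and 0.0390.

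Between LG/J and LGXSM-5, the extremes, *Adipoq* differed 2.40-fold (95% CI 1.86 to 3.11, limma adjusted p = 9.32e-08), and their replicates did not overlap. The strain F test in limma, adjusted over the 67 targets, gave *Adipoq* F = 10.2 and adjusted p = 3.38e-08. *Nampt* also passed (F = 2.42, adjusted p = 0.0343), while *Retn* (adjusted p = 0.0585) and *Lep* (adjusted p = 0.115) did not. So 2 of the 4 adipokine mRNAs passed, where 82.1% of all 67 targets did. On the means of sets of 3 only *Adipoq* of the 4 passed (limma adjusted p = 0.0403), and *Nampt* did not (adjusted p = 0.874). Some of these calls turned on single replicate numbers: with any 1 of Signals 3 to 8 left out of every strain *Nampt* did not pass (limma adjusted p from 0.0518 to 0.0836). Without Signal 4 *Retn* passed (limma adjusted p = 0.00489), and without 1 of Signals 4 to 7 *Lep* did (adjusted p from 0.0207 to 0.0471). Of the 28 pairs of strains, *Adipoq* differed in 14, *Nampt* in 3, *Retn* in 3 and *Lep* in 0, where 29.5% of all 1876 tests passed. On the means of sets of 3 these counts were 4, 0, 0 and 0. Leaving out 1 replicate number gave 8 to 14 pairs for *Adipoq* (9 without Signal 5 and 8 without Signal 6), 1 to 4 for *Nampt*, 0 to 5 for *Retn* and 0 or 1 for *Lep*. Without adjustment, limma p was under 0.05 in 16, 5, 6 and 2 pairs in the same order. In 2 of its 28 pairs the *Adipoq* replicates did not overlap, where 7.25% of all pairs did not, and for the other 3 mRNAs there was no such pair.

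LG/J was below each of the 7 other strains in *Adipoq*, and these are 7 of the 14 called pairs. LG/J was 2.12-fold lower than its fellow parent SM/J (95% CI 1.64 to 2.74, limma adjusted p = 3.28e-06), and 1.99-fold and 2.23-fold lower than LGXSM-6 and LGXSM-33. Against C57BL/6J, its neighbour in the order, LG/J was 1.44-fold lower (limma adjusted p = 0.0244). The median signals of LG/J and C57BL/6J lay close together, at 17 and 19. This pair was not called without normalization (limma adjusted p = 0.640) or on means of sets of 3 (adjusted p = 0.467). No other neighbours in the order of *Adipoq* levels differed, with limma adjusted p from 0.376 to 0.792. C57BL/6J was itself below LGXSM-5 by 1.67-fold, LGXSM-33 by 1.55-fold, LGXSM-6 by 1.38-fold and SM/J by 1.47-fold. The remaining calls put MRL/MpJ below LGXSM-5 and LGXSM-33, by 1.5-fold and 1.39-fold, and LGXSM-35 below LGXSM-5 by 1.40-fold.

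The high normalized *Adipoq* level of SM/J rested on its 3 replicates with the lowest *Gapdh* signals. Signals 4 to 6 of SM/J had the lowest *Adipoq* signals of the strain, 11 to 23.5, and a mean normalized level of 0.284, against 0.0122 for Signals 1 to 3 and -0.0931 for Signals 7 to 9. Without Signals 4 to 6, SM/J differed from C57BL/6J by 1.15-fold (limma adjusted p = 0.446) in place of 1.47-fold (adjusted p = 0.0175). LG/J stayed below SM/J by 0.219 on the log10 scale without them, in place of 0.327, with limma adjusted p = 0.00170. LGXSM-5 was then 1.45-fold above SM/J (limma adjusted p = 0.0226) in place of 1.13-fold (adjusted p = 0.499), and LGXSM-33 was 1.35-fold above it (adjusted p = 0.0559) in place of 1.05-fold (adjusted p = 0.792). LGXSM-6 and LGXSM-35 were then 1.20-fold and 1.04-fold above SM/J and were not called (limma adjusted p = 0.263 and 0.853), and on means of threes no line was.

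The scale of the comparison moved some strains and left LG/J the lowest. As the ratio of *Adipoq* to the reference genes, LG/J was 1.47-fold below C57BL/6J (limma adjusted p = 0.0451). Before normalization LG/J and C57BL/6J were alike in signal, with geometric means of 16.5 and 18.4, and LGXSM-6 stood 2.84-fold above C57BL/6J. LGXSM-6 was 1.38-fold above C57BL/6J on the deposited scale and 1.02-fold above as a ratio, where limma gave an adjusted p = 0.927.

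**Figure D3:**
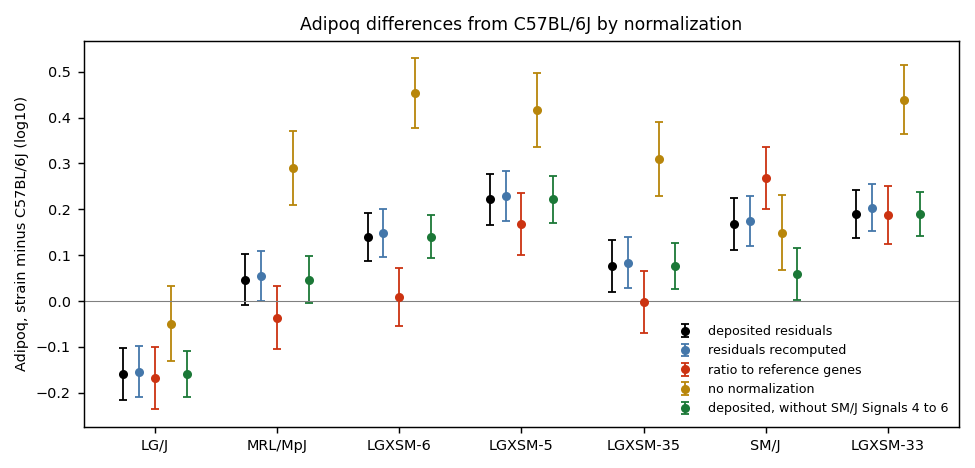
Difference of each strain from C57BL/6J in *Adipoq* (log10, ± SE of the limma fit) on the deposited normalized level, with the regression recomputed, as a ratio to the reference genes, without normalization, and without Signals 4 to 6 of SM/J. LG/J is at -0.159 on the deposited level and at -0.0491 without normalization, and SM/J falls from 0.168 to 0.0597 once the 3 signals are left out.

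Readings came in threes, and this bears on how firmly strains can be separated. Within 3 consecutive signals the *Adipoq* level had an SD of 0.0401, while threes of the same strain differed with an SD of 0.132, and the mean square between threes was 33.3 times that within them. For example, the means of successive threes in LGXSM-33 were 0.278, 0.0656, -0.111 and 0.124, and in LG/J they were -0.108, -0.310 and -0.360. When the mean of each set of 3 was taken as the unit (26 units, an alternative chosen after the data were seen), *Adipoq* had limma adjusted p = 0.0403 over the 34 targets of its panel, where 23.5% passed. Then 4 of its 28 pairs were called, where 5.78% of all pairs were, and all 4 are among the 14 above. They set LG/J below SM/J, LGXSM-5, LGXSM-6 and LGXSM-33, with limma adjusted p from 0.0144 to 0.0470. One of the 3 units of SM/J is its Signals 4 to 6. Without that unit LG/J was not shown to differ from SM/J (1.66-fold, limma adjusted p = 0.230), and 3 pairs were called, LG/J below LGXSM-5, LGXSM-6 and LGXSM-33 (adjusted p from 0.00690 to 0.0256).

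For *Nampt*, *Retn* and *Lep* the strains differed by no more than threes of a strain did. The mean square between strains was 2.69 times that between threes for *Adipoq*, 0.963 times for *Lep*, 0.872 times for *Nampt* and 0.860 times for *Retn*. On the means of threes the limma adjusted p was 0.874 for *Nampt*, 0.797 for *Retn* and 0.575 for *Lep*, with 0 pairs called and 0 at an unadjusted p under 0.05 for each.

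**Figure D4:**
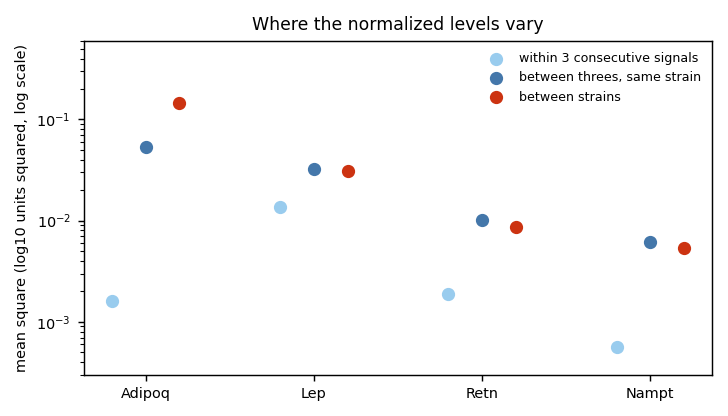
Mean squares of the normalized level (log10 units squared, log scale) within 3 consecutive signals, between the threes of a strain, and between strains, for each adipokine mRNA. Only for *Adipoq* does the point for strains (0.144) lie above that for threes of a strain (0.0536).

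On the normalized level *Nampt* was the steadiest of the 4. Its strain means spanned 1.18-fold, from -0.0332 ± 0.0217 (SD, n = 9) in LG/J to 0.0390 ± 0.0381 (n = 12) in LGXSM-6, and ranked 63 of 67 by that span. Signals in LG/J were 77, 107 and 140 (lowest, median and highest) and in LGXSM-6 were 140, 198.5 and 476. Before normalization *Nampt* was not steady, with strain medians from 82.5 in C57BL/6J to 198.5 in LGXSM-6. LGXSM-6 was above LG/J by 1.18-fold (limma adjusted p = 0.00528), above C57BL/6J by 1.14-fold (adjusted p = 0.0324) and above LGXSM-33 by 1.13-fold (adjusted p = 0.0359), and these are its 3 called pairs. The order of the others was LGXSM-5 (0.0201), SM/J (0.00978), LGXSM-35 (0.0000964), MRL/MpJ (-0.00882), LGXSM-33 (-0.0124) and C57BL/6J (-0.0176). No neighbours in that order differed, with limma adjusted p from 0.528 to 0.921. The difference between LGXSM-6 and C57BL/6J depended on the scale. As a ratio to the reference genes LGXSM-6 was 0.904 times C57BL/6J (limma adjusted p = 0.312). Without normalization LGXSM-6 was 2.52-fold above C57BL/6J (limma adjusted p = 1.74e-05).

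*Retn* signals hardly left the bottom of the scale in any strain. The strain medians lay between 7 and 9, and in LG/J and SM/J Signals 7 to 9 all read 7. LGXSM-5 had the highest level (0.0383 ± 0.0918, n = 9, signals 8 to 13) and LG/J the lowest (-0.0419 ± 0.0645, n = 9, signals 7 to 11), or SM/J at -0.0622 without its Signals 4 to 6. The 3 called pairs put LGXSM-5 1.20-fold above LG/J (limma adjusted p = 0.0354) and 1.19-fold above SM/J (adjusted p = 0.0446), and LGXSM-33 1.18-fold above LG/J (adjusted p = 0.0475). Their replicates overlapped in all 3 pairs, and with strain medians of 7 to 9 units no order of the strains is read from these calls. Without Signals 4 to 6 of SM/J, LGXSM-5 stood 1.26-fold above SM/J (limma adjusted p = 0.0148), and LGXSM-33 was 1.23-fold above it (adjusted p = 0.0203) in place of 1.17-fold (adjusted p = 0.0612). The 3 readings of LGXSM-5 with the highest *Retn* level, Signals 1 to 3, read 11 to 13, and its other 6 read 8 to 10.

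*Lep* varied as much between replicates of a strain as between strains. Its level was highest in C57BL/6J (0.0551 ± 0.124, n = 9, signals 8 to 17) and lowest in LGXSM-35 (-0.0780 ± 0.0868, n = 9, signals 7 to 13.5), a span of 1.36-fold. Replicate SDs in the 8 strains ran from 0.0868 to 0.182. The smallest limma adjusted p of a pair was 0.0989. Between 3 consecutive signals the SD of *Lep* was 0.117, the widest of the 4 mRNAs, against 0.0239 for *Nampt*.

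The share of variance that lay between strains (broad-sense heritability, H2) followed the order of the strain F test. It was 47.0% ± 23.3 (jackknife SE over the 8 strains) for *Adipoq*, rank 16 of 67. It was 14.7% ± 14.4 for *Nampt*, 10.7% ± 4.38 for *Retn* and 6.55% ± 4.91 for *Lep*, at ranks 51, 56 and 59. The median over the 67 targets was 29.6%. With means of threes as the units H2 was 34.2% for *Adipoq*, and the estimates for the other 3 fell below 0.

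**Figure D5:**
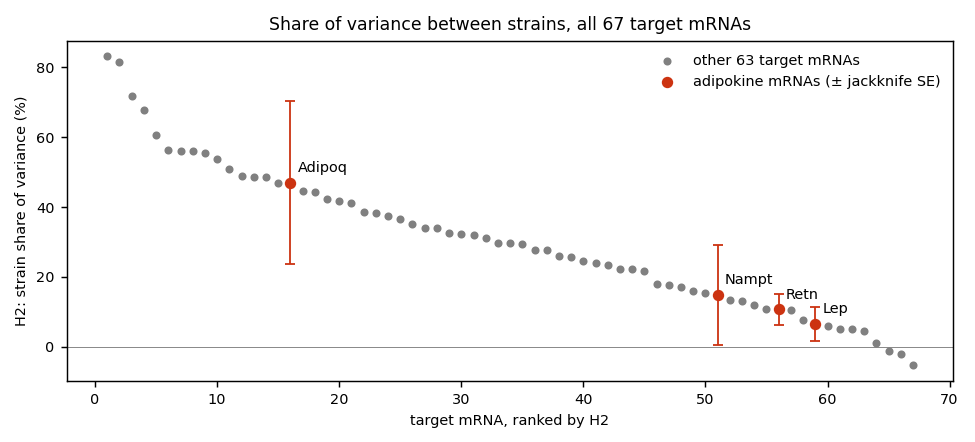
Share of variance between strains (H2, in percent) for all 67 target mRNAs, ranked from the highest, with the 4 adipokine mRNAs in red (± jackknife SE over strains). *Adipoq* at 47.0% lies above the median of 29.6%, and *Nampt*, *Retn* and *Lep* lie between 6.55% and 14.7%.

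The strains span 3 healing categories, and the design asks whether mRNA levels follow them. Mean *Adipoq* levels of the strains were -0.259, -0.0534 and 0.0403 in the healers, -0.0240 and 0.121 in the intermediate healers, and -0.100, 0.0676 and 0.0892 in the non-healers. Healers averaged -0.0908 ± 0.153 (SD, n = 3 strains) and non-healers 0.0189 ± 0.104 (n = 3), a 1.29-fold difference with p = 0.4 in the two-sided exact permutation test. With 3 strains against 3 the smallest p that test can give is 0.1. The difference in *Adipoq* was -0.0737 on the log10 scale without Signals 4 to 6 of SM/J, in place of -0.110, with an exact p = 0.5. Healers and non-healers overlapped for *Adipoq*, *Retn* and *Nampt*.

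For *Lep* healers and non-healers did not overlap with all signals, and did without Signals 4 to 6 of SM/J. The intermediate strains lay on either side, LGXSM-5 among the non-healers (0.0428) and LGXSM-35 below every healer (-0.0780). Among the healers its level was -0.0683 in LG/J, -0.0640 in LGXSM-6 and 0.0238 in MRL/MpJ. Among the non-healers it was 0.0322 in SM/J, 0.0352 in LGXSM-33 and 0.0551 in C57BL/6J. Such a split was found in 13.4% of the 67 targets. Healers were 1.19-fold lower, with an exact p = 0.1 and 0.744 after adjustment over 67 targets. Without those signals SM/J stood at 0.0188, below the healer MRL/MpJ, and the exact p was 0.2.

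*Retn* and *Nampt* showed small differences between healers and non-healers, of -0.0163 and 0.00573 on the log10 scale, with exact p = 0.5 and 0.8. These were -0.00833 and 0.00939 without Signals 4 to 6 of SM/J, both with an exact p = 0.8. A slope over the 3 categories gave exact p = 0.329 for *Adipoq*, 0.1 for *Lep*, 0.543 for *Retn* and 0.786 for *Nampt* in permutations over 560 arrangements. Of the 4 mRNAs 0 had an unadjusted exact p under 0.05 for the slope, where 7.46% of all targets did. With the categories scored 0, 1 and 2 this slope is set by the same healer and non-healer means. After adjustment no target passed in either test, and before it 0 targets in the first and 5 in the second had an exact permutation p under 0.05.

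Healer and non-healer strains were set against each other in 3 pairs: the parents LG/J and SM/J, the recombinant lines LGXSM-6 and LGXSM-33, and MRL/MpJ with C57BL/6J. MRL/MpJ is known to descend in large part from LG/J, so the pairs are not independent in ancestry. *Adipoq* was lower in the healer in the parents, at 0.471 times SM/J (limma adjusted p = 8.33e-06 over 67 targets, of which 23.9% passed). It was 0.894 times in LGXSM-6 over LGXSM-33 (adjusted p = 0.574, where 20.9% passed) and 1.11 times in MRL/MpJ over C57BL/6J (adjusted p = 0.682, where 14.9% passed). The parental difference minus that of the recombinant pair was -0.278 ± 0.0741 (log10, SE; limma adjusted p = 0.00287, where 20.9% of targets passed). The parental difference minus that of MRL/MpJ and C57BL/6J was -0.374 ± 0.0793 (adjusted p = 0.000360, where 7.46% passed). Without Signals 4 to 6 of SM/J these became -0.170 (adjusted p = 0.0802) and -0.266 (adjusted p = 0.0273), and on means of threes neither passed (limma adjusted p = 0.216 and 0.184). On means of threes the parental difference itself had limma adjusted p = 0.0749 when adjusted over the targets of the panel for this pair alone.

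*Nampt* went the other way in the recombinant pair, where the healer LGXSM-6 was 1.13-fold above LGXSM-33 (limma adjusted p = 0.0487 over 67 targets, and 0.0591 with the replicate number as a block). This call was lost when any 1 of Signals 4 to 9 was left out (limma adjusted p from 0.0703 to 0.160). In the parents the healer stood at 0.906 times SM/J (limma adjusted p = 0.149), and at 0.929 times without Signals 4 to 6 of SM/J (adjusted p = 0.346). The parental difference minus the recombinant one was -0.0943 ± 0.0295 (log10, SE, limma adjusted p = 0.0113), with limma adjusted p = 0.343 on means of threes and 0.0939 without Signal 6 of every strain. It was -0.0834 without Signals 4 to 6 of SM/J alone (limma adjusted p = 0.0409). The pairs were not shown to differ in *Lep* or *Retn*, with limma adjusted p from 0.629 to 1.00 for *Lep* and 0.643 to 0.937 for *Retn*. The *Lep* level of the healer was 0.793 times that of the non-healer in the parents, 0.796 times in the recombinant lines and 0.931 times in MRL/MpJ over C57BL/6J, with limma adjusted p of 0.216, 0.232 and 0.831. The parental *Lep* ratio was 0.818 without Signals 4 to 6 of SM/J (limma adjusted p = 0.346).

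Correlations between the 4 mRNAs differed from pair to pair, and whether they move as 1 group was not tested. Over the 8 strain means r was 0.72 between *Adipoq* and *Nampt*, 0.64 between *Lep* and *Retn*, 0.53 between *Adipoq* and *Retn* and 0.41 between *Adipoq* and *Lep*. For *Nampt* r was -0.08 with *Lep* and 0.17 with *Retn*. Within strains, over deviations of the 78 replicates from their strain means, the order changed. Here r was 0.56 between *Retn* and *Nampt*, 0.48 between *Lep* and *Retn* and 0.33 between *Lep* and *Nampt*. For *Adipoq* r was 0.28 with *Retn*, 0.24 with *Lep* and 0.06 with *Nampt*. These are descriptions of mRNAs that share wells and reference genes. Strain means of *Lep*, *Retn* and *Nampt* differed no more than threes of a strain did, so r over strain means cannot show whether these mRNAs move together.

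Among all 66 other targets, the strain means most like *Adipoq* were those of *Trp53*, the gene of the p53 tumor suppressor (r = 0.89), then *Nampt* and *Bcl3*, a co-regulator of NF-kappaB (r = 0.70). *Nampt* also had *Trp53* first (r = 0.77), then *Adipoq* and *Chrdl1*, a BMP antagonist (r = 0.64). *Retn* was most like *Il4*, *Bcl3* and *Wnt3a* (r = 0.89, 0.88 and 0.76), and *Il4* and *Wnt3a* had median signals of 11 and 7, against 8 for *Retn*. *Lep* was most like *Mmp1a*, a collagenase gene (r = 0.69), *Retn* and *Bcl3* (r = 0.60). Between replicates of a strain, over the other 33 targets of the second panel alone, *Lep* moved most with *Mmp1a* (r = 0.84, median signal 10.3), *Map1lc3a* (r = 0.58) and *Atg7* (r = 0.53), the latter both autophagy genes. In that panel *Adipoq* had *Axin2*, *Trp53* and *Smad1* first (r = 0.40, 0.33 and 0.33), *Nampt* had *Retn*, *Xpa* and *Atg7* (r = 0.56, 0.47 and 0.47), and *Retn* had *Nampt*, *Fzd2* and *Mmp1a* (r = 0.56, 0.50 and 0.48).

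Of 8 other genes listed for adipokine signalling, 7 passed the strain F test and *Apln* did not, a share close to the 82.1% of all 67 targets. *Apln*, the gene of the adipokine apelin, had a median signal of 5 and limma adjusted p = 0.102. *Cebpb*, a transcription factor of adipocyte differentiation, was lowest in LG/J (-0.175) as *Adipoq* was, and highest in C57BL/6J (0.124), where *Adipoq* was second lowest. LG/J took part in 7 of the 10 called pairs of *Cebpb*, and r with *Adipoq* over strain means was 0.50. *Stat3*, which carries the leptin signal, spanned 1.28-fold between strains (limma adjusted p = 0.000781), and its r with *Lep* over strain means was 0.32.

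The targets of inflammation and growth in that list ranged from small to wide spans between strains. *Ccl3*, a macrophage chemokine, spanned 3.05-fold with its highest level in LGXSM-35 (0.315), and *Il6* spanned 1.33-fold at a median signal of 9. *Igf1*, a growth factor, spanned 2.52-fold and had 18 called pairs of 28, more than *Adipoq*. *Nfkb1* spanned 1.27-fold (limma adjusted p = 0.000306) and *Vegfa* 1.40-fold (adjusted p = 6.66e-05). For the slope over healing categories 1 of the 8, *Il6*, had an unadjusted exact p under 0.05 (exact p = 0.0429, 0.574 after adjustment), where 5 of all 67 targets, or 7.46%, did. On means of threes neither *Apln* nor *Vegfa*, the 2 of the list in the second panel, passed.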

How the data were processed

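Homogenates of knee joint sections were assayed by the authors with a QuantiGene Plex bead assay. The deposited values are log10 signals before normalization and log10 residuals from the authors' multiple regression on the reference genes of each panel. The paper's methods state that background was subtracted, and the files do not say at which step. Samples were grouped by strain from the labels. Deposited averages and fold changes of the authors against C57BL/6J were not used, and 0 columns were left out.

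Strains were compared with limma 3.58.1 (R 4.3.3) on the normalized values of all targets, each panel fitted on its own, with Benjamini-Hochberg adjustment over the 67 targets, or over all 1876 tests of pairs, at a threshold of 0.05. Folds are 10 to the power of the log10 difference. Healing categories were compared by two-sided exact permutation over strain means (20 and 560 arrangements). H2 came from one-way variance components. Python 3.11.15 with numpy 2.4.6 and pandas 2.3.3 was used. Named were the 4 members, the 3 targets most like each, and 8 listed genes. The members, lists and tests were chosen with earlier results of these data known. Alternatives were 4 other normalizations, a filter on a median signal of 20, array weights, medians, a replicate block, permutation of the replicates, the 6 strains of the cross, and leaving out each replicate number, each strain or Signal 9 of LGXSM-35 in the first panel. Means of 3 consecutive signals, leaving out Signals 4 to 6 of SM/J, and both together, were added after the data were seen. Steps were tested on simulated data.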

Additional observations from a re-analysis of the deposited data

Results flagged for a closer look

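*Retn* had 1 assay replicate far above the rest in LG/J, Signal 4 at a normalized level of 0.111 (signal 11, where the other 8 read 7 to 8.5). In SM/J it was again Signal 4, at 0.0764 (signal 9, where the others read 6.5 to 8), and this is 1 of the 3 readings of SM/J with low *Gapdh* (497 in this one). These are 2 of 24 sets of 9 replicates examined, and chance alone marks about 1 in 20 if readings are independent, which readings that come in threes are not (for *Retn* the mean square between threes was 5.29 times that within).

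In the test over assay replicates the difference in *Adipoq* between healer and non-healer differed between strain pairs. The parents differed from the recombinant pair by -0.278 and from MRL/MpJ and C57BL/6J by -0.374 on the log10 scale, and the parents and the recombinant pair differed in *Nampt* by -0.0943. All 3 passed limma's test over assay replicates and did not pass it on means of 3 consecutive signals. Without Signals 4 to 6 of SM/J the first fell to -0.170 and did not pass (limma adjusted p = 0.0802), the second was -0.266 (adjusted p = 0.0273) and that in *Nampt* was -0.0834 (adjusted p = 0.0409). Without normalization the parents and the recombinant pair were not shown to differ in *Adipoq* (limma adjusted p = 0.509) or *Nampt* (adjusted p = 0.825).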

How the results depend on the processing

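*Adipoq* passed the strain F test under every alternative run, with limma adjusted p of at most 0.0403. The H2 of *Adipoq* moved by less than its jackknife SE under each alternative. That SE is built from the H2 values with each strain left out in turn. Leaving out a strain can therefore hardly move H2 beyond it. For those alternatives the comparison cannot show whether the H2 of *Adipoq* depended on any particular strain. The replicate numbers pair no samples that the labels identify, and with the number as a replicate block *Adipoq* had 15 called pairs, *Nampt* 3, *Retn* 2 and *Lep* 0, at limma adjusted p of 2.57e-09, 0.0420, 0.0741 and 0.140. The other results of mRNAs with low signals or small differences depended on the processing, and the cause was not tested. A filter on signal left no value for *Lep* and *Retn*. At these signals differences of the size measured for *Lep* and *Retn* are a few units of light, and strains cannot be ordered by them, whichever pairs were called.

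On means of 3 consecutive signals *Adipoq* had 4 called pairs, *Nampt* 0 with limma adjusted p = 0.874, and *Retn* 0. Leaving Signals 4 to 6 of SM/J out as well gave 3, 0 and 0 pairs, with limma adjusted p = 0.0255 for *Adipoq* and 0.806 for *Nampt*. On the means of all sets H2 was -1.15% for *Lep*, -4.52% for *Retn* and -4.13% for *Nampt*. As ratios to the reference genes *Lep* and *Retn* passed (limma adjusted p = 1.59e-06 and 0.000135) with 12 and 8 pairs and H2 of 39.9% and 29.0%. Without normalization *Retn* passed (limma adjusted p = 0.0230) with 5 pairs and H2 of 19.1%, and *Nampt* had 13 pairs and H2 of 43.9%. With array weights *Lep* (limma adjusted p = 0.00734, 6 pairs) and *Retn* (adjusted p = 0.0180) passed. *Retn* passed without Signals 4 to 6 of SM/J (limma adjusted p = 0.0270) and by permutation of replicates (unadjusted p = 0.0471), and its H2 was 15.5% in the 6 strains of the cross.

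Leaving out 1 replicate number gave 8 to 14 called pairs for *Adipoq*, 0 to 1 for *Lep*, 0 to 5 for *Retn* and 1 to 4 for *Nampt*. Limma adjusted p of the F test then ran from 0.0207 to 0.383 for *Lep*, 0.00489 to 0.256 for *Retn* and 0.0272 to 0.0836 for *Nampt*, and H2 from 0.486% to 15.05% for *Lep* and 4.25% to 22.6% for *Retn*. Leaving out 1 strain was run for H2 and the healing categories alone, and H2 of *Nampt* was then 3.49% without LGXSM-6 and 8.99% to 20.1% without another strain.

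Some differences changed sign. Among them was a called one: in *Nampt*, LGXSM-6 minus C57BL/6J was 0.0566 on the deposited level and -0.0438 as a ratio. The others given here had not passed a test. Healer minus non-healer became 0.0354 for *Adipoq* and 0.00969 for *Retn* without normalization, and -0.0209 as a ratio and -0.00277 with medians for *Nampt*, with -0.0143 to 0.0218 when 1 strain was left out. The slopes per category became 0.0177, 0.00485, -0.0105 and -0.00139 in the same order, with -0.00572 to 0.0113. In *Adipoq*, LGXSM-6 minus LGXSM-33 was 0.0145 without normalization and MRL/MpJ minus C57BL/6J was -0.0359 as a ratio. MRL/MpJ minus C57BL/6J was 0.0128 for *Lep* and 0.0136 for *Retn* without normalization, and -0.0778 as a ratio and -0.0128 with array weights for *Nampt*. Without 1 replicate number it ran from -0.0451 to 0.00805 for *Lep*, -0.0183 to 0.00717 for *Retn* and -0.000678 to 0.0188 for *Nampt*. LG/J minus SM/J was 0.177 for *Nampt* and 0.0226 for *Retn* without normalization, and for *Retn* 0.000932 with array weights, 0.0203 without Signals 4 to 6 of SM/J, and -0.0113 to 0.00282 without 1 replicate number.

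Of differences between the pairs, the parents against the recombinant lines in *Lep* gave 0.00882 without normalization, 0.0159 with array weights, 0.0120 without Signals 4 to 6 of SM/J (over signals or means of 3) and -0.0293 to 0.0453 without 1 replicate number, and in *Retn* -0.0138 as a ratio. The parents against MRL/MpJ and C57BL/6J gave as a ratio 0.000447 in *Lep* and 0.0172 in *Nampt*, and in *Retn* -0.00935 to 0.0211 without 1 replicate number. The recombinant lines against MRL/MpJ and C57BL/6J gave as a ratio 0.0353 in *Lep* and 0.111 in *Retn*. As ratios MRL/MpJ was below C57BL/6J in *Lep* and *Retn* by log10 differences of -0.313 and -0.312, LG/J below SM/J in *Lep* by -0.313 and LGXSM-6 below LGXSM-33 in *Lep* by -0.278 and in *Adipoq* by -0.180, all with limma adjusted p under the threshold. Without normalization MRL/MpJ was above C57BL/6J in *Adipoq* by 0.290 and in *Nampt* by 0.248, and the difference between the parents and the recombinant lines did not pass in *Adipoq* (limma adjusted p = 0.509) or *Nampt* (adjusted p = 0.825).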
